A study of Mus musculus with 15 samples.

Results

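The genes described here are regulators of muscle formation and genes that mark embryonic muscle, followed through 15 mammary tumours of p53-null mice. They were chosen by symbol from the deposited expression table, because Myf5 and Cdh15 stood high in the single T11 tumour. Of the 8 symbols listed, 6 were present among 17271 genes: Myf5, Myog, Cdh15, Chrna1, Myh3 and Myh8. Myod1 and Pax7 were not analysed here. The T11 values of Myf5 and Cdh15 therefore chose the members, and are given as a description with no test.

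The tumours are all labelled as mouse mammary tumour of the Balbc strain with a p53-NULL genotype, so every group lacks p53. There are 4 tumour models: 2208L (n = 8), 2151R (n = 4), 2225L (n = 2) and T11 (n = 1). In their titles 2 of the 2151R samples carry NT and the rest a mark of their own, while 2208L divides into PBS (4 samples), 3day nt (3) and a single ROSEN sample. What the marks mean, the age of the animals and whether the samples of a model came from separate animals are not stated, so p-values measure the spread between these samples, which may be partly technical. No label names a treatment, and T11 has no replicate.

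Skeletal muscle is built by a small family of basic helix-loop-helix transcription factors. Myf5 acts early and commits precursor cells to the muscle lineage, and Myog, which encodes myogenin, acts later and drives the differentiation of myoblasts into fibres. Both bind the short DNA element known as the E-box. Cdh15 encodes M-cadherin, an adhesion molecule of muscle precursor cells, and Chrna1 encodes the alpha subunit of the muscle acetylcholine receptor, through which a nerve triggers contraction. Myh3 and Myh8 encode the embryonic and the perinatal myosin heavy chain, which adult fibres replace with other isoforms except during repair. Healthy mammary epithelium is not known for expressing these genes.

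The genes lie on 5 chromosomes (positions of GENCODE M21 on GRCm38, the sequence behind the mm10 build named in the submitters' processing notes). Myf5 is at chr10:107482908-107486134 on the minus strand, 6.72 kb from its relative Myf6. Myog is at chr1:134289989-134292548 (plus strand), Cdh15 at chr8:122847966-122867397 (plus) and Chrna1 at chr2:73563215-73580338 (minus). Myh3 (chr11:67078300-67102291, plus) and Myh8 (chr11:67277124-67308634, plus) lie 175 kb apart in a cluster of similar myosin genes. How reads were divided among these myosins is not stated, so their values are uncertain on that account.

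Promoter windows of RefSeq (GRCm38.p6, 250 bases before to 50 after the start of transcription, read 5′ to 3′ on the gene's strand) are shown for the early regulator, the late regulator and the pair Cdh15 and Chrna1, which ran together across the samples. All 6 members had such a window. Capitals mark each CANNTG, the general form of the E-box, which reads the same on both strands. The windows are chr10:107486085-107486384 for Myf5, chr1:134289754-134290053 for Myog, chr8:122848124-122848423 for Cdh15 and chr2:73580289-73580588 for Chrna1. The RefSeq start of Cdh15 lies inside the GENCODE gene.
Myf5: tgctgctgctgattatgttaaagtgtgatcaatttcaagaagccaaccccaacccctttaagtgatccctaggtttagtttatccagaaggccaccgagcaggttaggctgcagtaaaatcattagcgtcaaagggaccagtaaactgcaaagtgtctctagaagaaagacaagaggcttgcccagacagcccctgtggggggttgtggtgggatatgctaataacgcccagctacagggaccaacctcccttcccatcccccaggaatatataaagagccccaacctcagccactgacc
Myog: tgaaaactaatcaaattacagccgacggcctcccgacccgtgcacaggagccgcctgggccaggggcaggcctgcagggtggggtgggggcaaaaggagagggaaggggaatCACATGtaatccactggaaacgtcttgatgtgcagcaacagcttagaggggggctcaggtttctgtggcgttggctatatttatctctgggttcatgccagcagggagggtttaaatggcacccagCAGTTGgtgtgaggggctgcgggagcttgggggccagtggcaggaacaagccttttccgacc
Cdh15: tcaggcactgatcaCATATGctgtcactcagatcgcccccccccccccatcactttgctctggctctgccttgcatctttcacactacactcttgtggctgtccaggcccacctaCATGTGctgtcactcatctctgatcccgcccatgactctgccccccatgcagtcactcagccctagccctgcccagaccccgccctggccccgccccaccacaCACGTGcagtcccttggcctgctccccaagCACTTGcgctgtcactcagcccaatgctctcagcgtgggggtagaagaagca
Chrna1: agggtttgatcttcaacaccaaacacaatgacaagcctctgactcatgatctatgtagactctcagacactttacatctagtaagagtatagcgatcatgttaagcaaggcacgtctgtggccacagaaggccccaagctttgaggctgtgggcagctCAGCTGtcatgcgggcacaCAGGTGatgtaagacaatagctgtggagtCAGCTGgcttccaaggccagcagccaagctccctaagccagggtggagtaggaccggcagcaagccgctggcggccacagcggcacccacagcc

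The Myf5 window held no CANNTG, a form found in 72.3% of 32851 windows of this length. Counting the start base as 0, Myog held CACATG at -138 and CAGTTG at -12. Chrna1 held CAGCTG at -92 and at -44, a hexamer in 16.3% of all windows, and CAGGTG at -73, which on either strand (CAGGTG or CACCTG) is in 20.2%. These more specific hexamers are included in CANNTG. Cdh15 held 4 matches, CATATG at -236, CATGTG at -135, CACGTG at -32 and CACTTG at -2. The MEF2 consensus, searched on both strands and present in 3.19% of windows, was found among the members at Myh8 only, where a match starts at -99. These are letter matches in a short window and not measured binding sites.

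Values are log2 expression centred on a median for each gene, so they rank samples for a gene and not genes within a sample. The median over these 15 samples was 0 at only 1124 of the 17271 genes, so 0 need not be their middle. At Chrna1 the middle one of the 15 samples was at -1.17. There are no counts from which a depth could be read. At 727 genes (4.21%) at least 2 samples share exactly the same number, and 4 of the 6 members are among them. The shared value is 0.00 at Myf5 (9 samples), -2.33 at Myog (6), -4.49 at Myh3 (4) and -0.61 at Myh8 (7). What it stands for is not stated, and 1 or 2 samples lay below it at each of these genes. Neither it nor a value below it is therefore read here as a measured level of a sample. Such values still enter the means, fits and correlations below as deposited, which limits these at the 4 genes. Trp53 was between -0.29 and 1.63 over the 15 samples, and centring hides whether it is expressed. Of the mammary epithelium list (Epcam, Cdh1, Krt8, Krt18, Krt5, Krt14), T11 minus the median of 2208L was -8.92 in the median gene. The T11 values themselves were -9.83 for Epcam and -10.20 for Krt8. Centred on each gene's median over the samples, the median of this list was -8.68 in T11, -4.37 to -3.46 in 2151R and -0.03 to 1.28 in 2225L and 2208L. Not every gene of the list followed. Krt5 was at 2.16 to 3.14 in 2151R and -4.59 to 2.48 in 2208L, with T11 at -4.51. Krt14 was at -7.80 in T11, -0.71 to 0.00 in 2151R and -0.43 to 2.58 in 2208L.

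3 libraries are rich in adult skeletal muscle transcripts: replicate 3 of 2151R (titled NT2) and replicates 6 and 8 of 2208L (KM58 and KM63). Over 16 adult muscle genes such as Ckm and Acta1, the median deviation from the gene's own median was 5.63, 8.84 and 8.29 in these libraries. It was -5.04 to 1.39 in the other 11 samples outside T11, and 0.34 in T11. In each of the 3 libraries all 16 genes lay above every sample of the model that is not muscle-rich. The summed log2 values of the 16 genes were 91.3, 158 and 148, against -39.6 to -38.9 in the rest of 2151R and -49.3 to 42.8 in the rest of 2208L. They were 25.8 in T11 and -19.8 and 30.2 in 2225L. Centred values do not show which of these markers is absent from a sample. In bulk tissue a larger number of muscle cells and more RNA per cell cannot be told apart. These libraries were singled out by a measured outcome, so they form no group here, and their part in the results below was not tested beyond leaving them out.

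Myf5 was at 10.22 in T11, 6.80 above the next sample, which is replicate 6 of 2208L at 3.42. Replicate 8 of 2208L was at 2.96. In 2151R, Myf5 was at 0.00, -0.43, -0.64 and 0.00 in replicates 1 to 4, and both samples of 2225L were at 0.00. The other 6 samples of 2208L lay from 0.00 to 0.02. T11 and the muscle-rich pair of 2208L are thus the only samples clear of the shared value on the high side. The muscle-rich sample of 2151R had the lowest number of all 15, -0.64. It had the same -0.64 at Myh6, where the shared value is also 0.00, so this is not read as a lower level of Myf5. By the size of the margin over every other sample, Myf5 in T11 ranked 3 among 17271 genes.

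Cdh15 was at 7.54 in T11, 5.48 above the next sample, a margin ranked 10. The next were replicates 6 and 8 of 2208L, at 2.06 and 1.88. The samples of 2151R followed at 0.48, -0.001, 0.05 and -0.91, in replicate order. The other 6 samples of 2208L were lower, from -5.93 to -1.59, and 2225L was at -3.67 and -4.08. Cdh15 thus formed 4 levels without overlap: T11, the muscle-rich pair of 2208L, 2151R, and all remaining tumours. Within 2151R the muscle-rich sample, at 0.05, sat among the other 3.

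Chrna1 had a similar order with T11 less far out. It was at 3.53 and 3.38 in replicates 6 and 8 of 2208L and at 3.09 in T11, and these 3 differ by less than the SD of 0.46 within 2151R. In 2151R it was at 1.26, 0.73, 1.85 and 1.31. The remaining samples of 2208L lay from -4.84 to -1.17, and 2225L was at -1.23 and -3.22. All of 2151R therefore stood above every sample of 2225L and above the 6 samples of 2208L that are not muscle-rich. Across the 15 samples Cdh15 and Chrna1 ran together (Pearson r = 0.90, and 0.97 over 14 samples without T11), where samples of a model share their origin and the figure is a description.

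Myog, the late regulator, did not share the T11 peak of Myf5. It was highest in replicates 6 and 8 of 2208L, at 4.76 and 4.40, followed by T11 at 1.66, replicate 3 of 2208L at 1.51 and replicate 1 of 2225L at 0.44. Replicate 2 of 2208L was at -0.50. In 2151R the muscle-rich replicate 3 was at -0.97 and the other 3 samples were at the shared -2.33. The remaining 5 samples, replicate 2 of 2225L among them, lay at or below the shared value, from -2.92 to -2.33. T11 thus lay close to a PBS tumour of 2208L at Myog, while the pair of 2208L stood apart from all others.

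**Figure D1:**
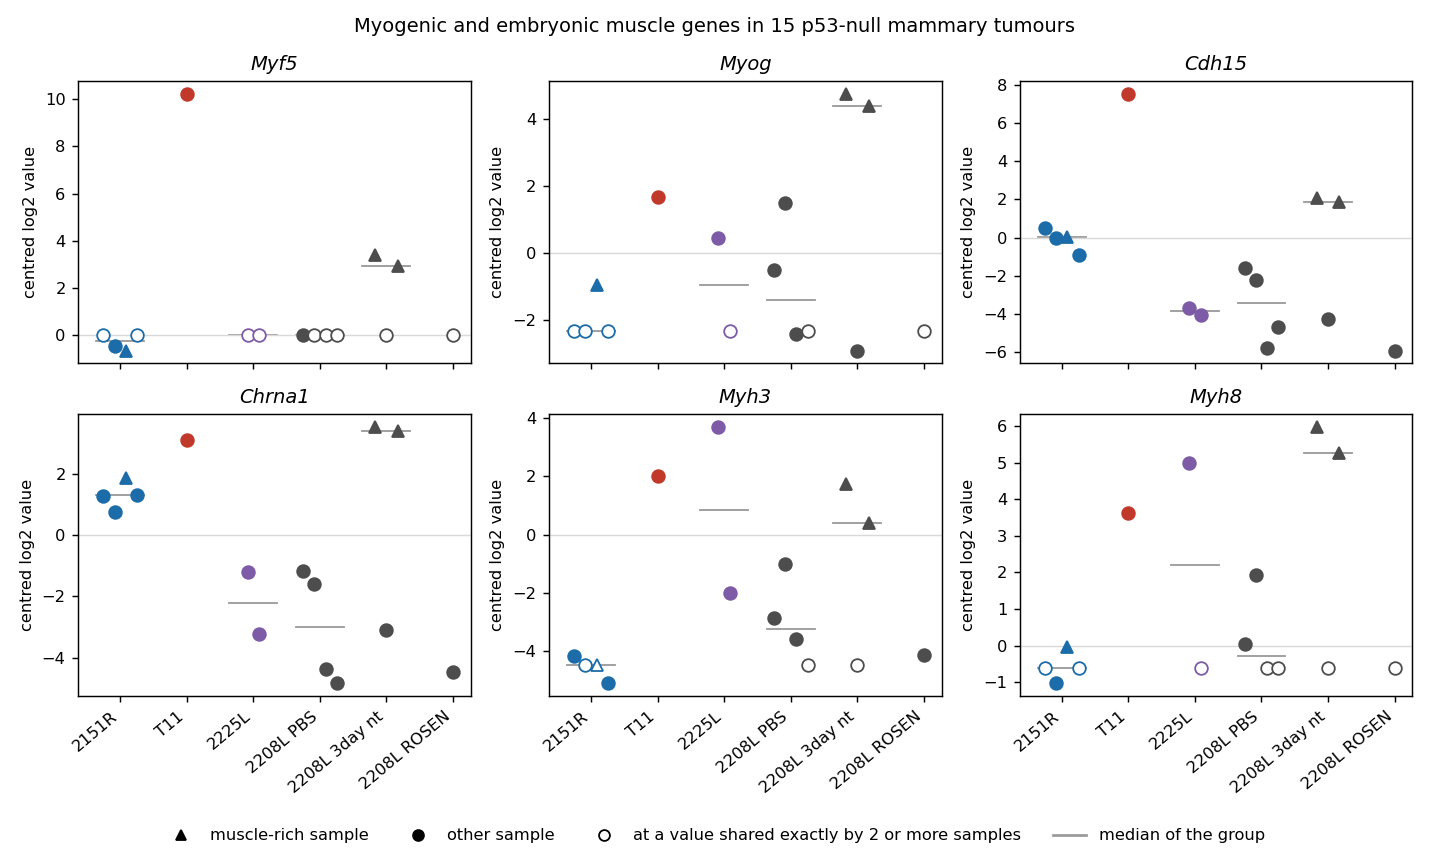
Centred log2 value (vertical axes) of the 6 members by model and, for 2208L, by title mark (horizontal axes); each symbol is 1 sample, triangles are the 3 muscle-rich samples, open symbols are values shared exactly by at least 2 samples and bars are group medians. Myf5 and Cdh15 peak in T11 (10.22 and 7.54), Myog, Myh8 and Chrna1 in replicate 6 of 2208L, and Myh3 in replicate 1 of 2225L (3.70).

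Of the developmental myosins, Myh3 peaked in yet another sample. It was highest in replicate 1 of 2225L at 3.70, followed by T11 at 1.99 and replicates 6 and 8 of 2208L at 1.72 and 0.41. In 2151R it was at -4.15, -4.49, -4.49 and -5.09, with the muscle-rich replicate 3 at the shared value. The last is the lowest number of all samples, but it lies below the shared value and is not read as a lower level. Replicate 2 of 2225L was at -1.998, and the other 6 samples of 2208L lay from -4.49 to -1.01.

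Myh8 was at 5.99 and 5.27 in replicates 6 and 8 of 2208L and at 4.995 in replicate 1 of 2225L, followed by T11 at 3.63 and replicate 3 of 2208L at 1.92. In 2151R it was at -0.61, -1.03, -0.04 and -0.61. The other 6 samples, 5 of 2208L and replicate 2 of 2225L, lay from -0.61 to 0.05. The samples of 2225L thus lay far apart at both myosins, with replicate 1 above T11 and replicate 2 below it. At Myh8 replicate 2 was at the shared value, and at Myh3 it was above all of 2151R. They differ in library prefix, CP in replicate 1 and ROSEN in replicate 2. Myh3 and Myh8 ran together over the 15 samples (Pearson r = 0.92), and so did Myog and Myh8 (0.93, and 0.92 without T11). Myf5 and Myh8 had 0.57, and 0.79 without T11. These are again descriptions over samples that share models.

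Cdh15 and Chrna1 were also set against the adult muscle genes of each sample. Within 2208L, replicates 2 and 3, with adult medians of 1.39 and 0.53, had Cdh15 at -1.59 and -2.21, while replicates 1, 4 and 5, with adult medians of -5.04 to -2.87, had it at -5.93 to -4.70. Replicate 7 did not follow this order, with an adult median of 0.19 and Cdh15 at -4.29. In 2151R the adult genes covered a wide range, at -3.01 to -2.63 in 3 samples and 5.63 in the muscle-rich replicate 3. Cdh15 was there at 0.05, within the -0.91 to 0.48 of the model. Chrna1 was at 1.85 in that replicate, its highest in the model, and at 0.73 to 1.31 in the others. T11 had the highest Cdh15 with an adult median of 0.34.

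**Figure D2:**
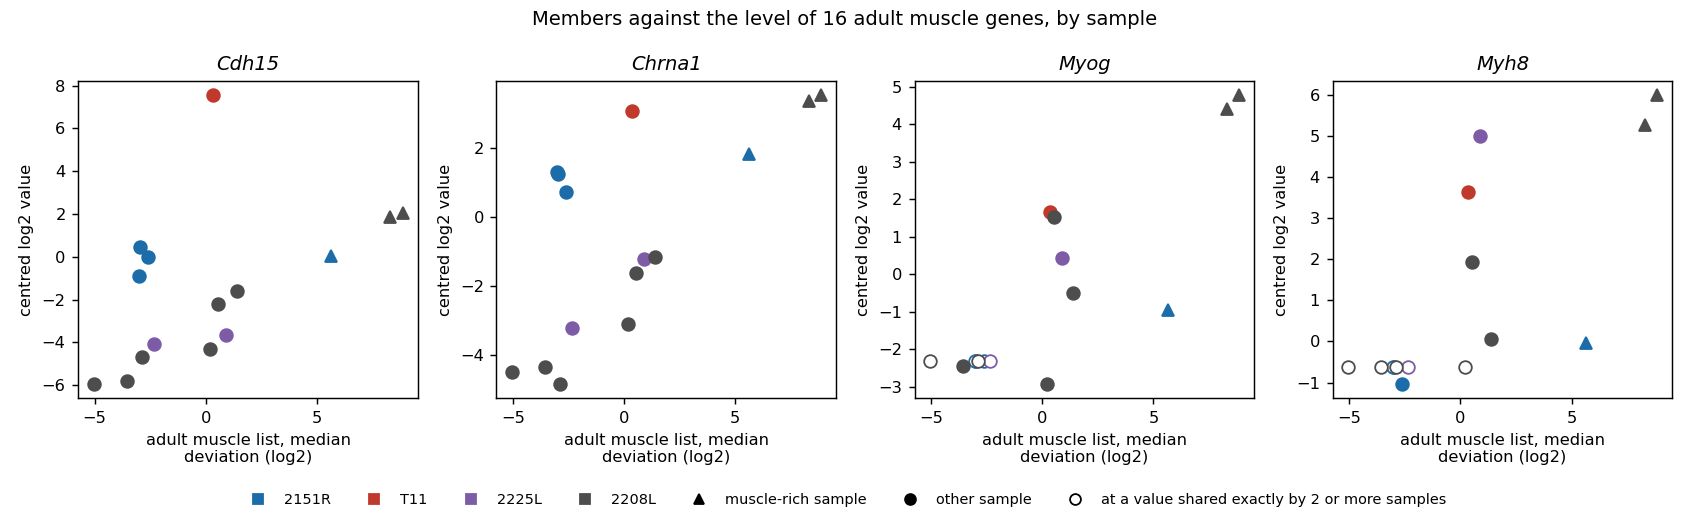
Centred log2 value of Cdh15, Chrna1, Myog and Myh8 (vertical axes) against the median deviation of 16 adult muscle genes in the same sample (horizontal axes, log2); each symbol is 1 of 15 samples, coloured by model. At Cdh15 and Chrna1 the samples of 2151R lie above those of 2208L and 2225L with adult medians below 0, and T11 stands at 7.54 for Cdh15 with an adult median of 0.34.

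Other genes of the muscle lineage were read from lists, and T11 is described by how many lay at least 1 log2 unit above all other samples, which 2.95% of all genes did. The members' own count, 2 of 6, restates the choice. In the satellite cell and progenitor list 2 of 11 did so: Megf10, a receptor of satellite cells (4.19, next 2.02), and Eya1, a transcriptional co-activator of muscle precursors (3.88, next 2.67). In the acetylcholine receptor and synapse list 2 of 8 did: Chrnd, the delta subunit of the receptor (7.52, next 2.70), and Musk, the kinase that gathers receptors at the synapse (6.52, next 2.11). The next sample for Chrnd and Musk was replicate 6 of 2208L. In the satellite cell list Met and Fgfr4 went the other way, with T11 minus the median of 2208L at -4.39 and -3.83.

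Of 13 differentiation and fusion genes, Cdon, a surface receptor that promotes myoblast differentiation, was the only one (2.45, next 0.52). None of 8 embryonic and cardiac type sarcomere genes and none of 16 adult muscle genes stood out in T11. Pax3, a regulator of embryonic muscle precursors, was at -3.77 in T11, a number shared with all 4 samples of 2151R and the lowest at this gene. Myf6, the neighbour of Myf5, was at 1.62 in T11 against 7.16 and 7.47 in replicates 6 and 8 of 2208L. The median excess of T11 over the median of 2208L was 0.34 for the satellite cell list, 1.93 for the synapse list, 0.92 for differentiation, 0.76 for the embryonic sarcomere and -0.07 for adult muscle, beside 0.16 over all genes.

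Lists of other cell types were read the same way. The excess of T11 over the median of 2208L was 1.93 in the median of 6 fibroblast and mesenchyme genes, 0.65 for 6 smooth muscle and myoepithelial genes (of which only Mylk lay 1 unit above all others), -0.03 for 5 brown fat genes, 0.15 for 2 heart genes and -2.15 for 6 nerve and Schwann genes. The part of these cell types in the T11 values was not tested. The summed log2 values of the fibroblast list were 7.61 in T11, 6.90 to 9.92 in 2151R, -6.55 and -5.40 in 2225L and -8.77 to 2.95 in 2208L.

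**Figure D3:**
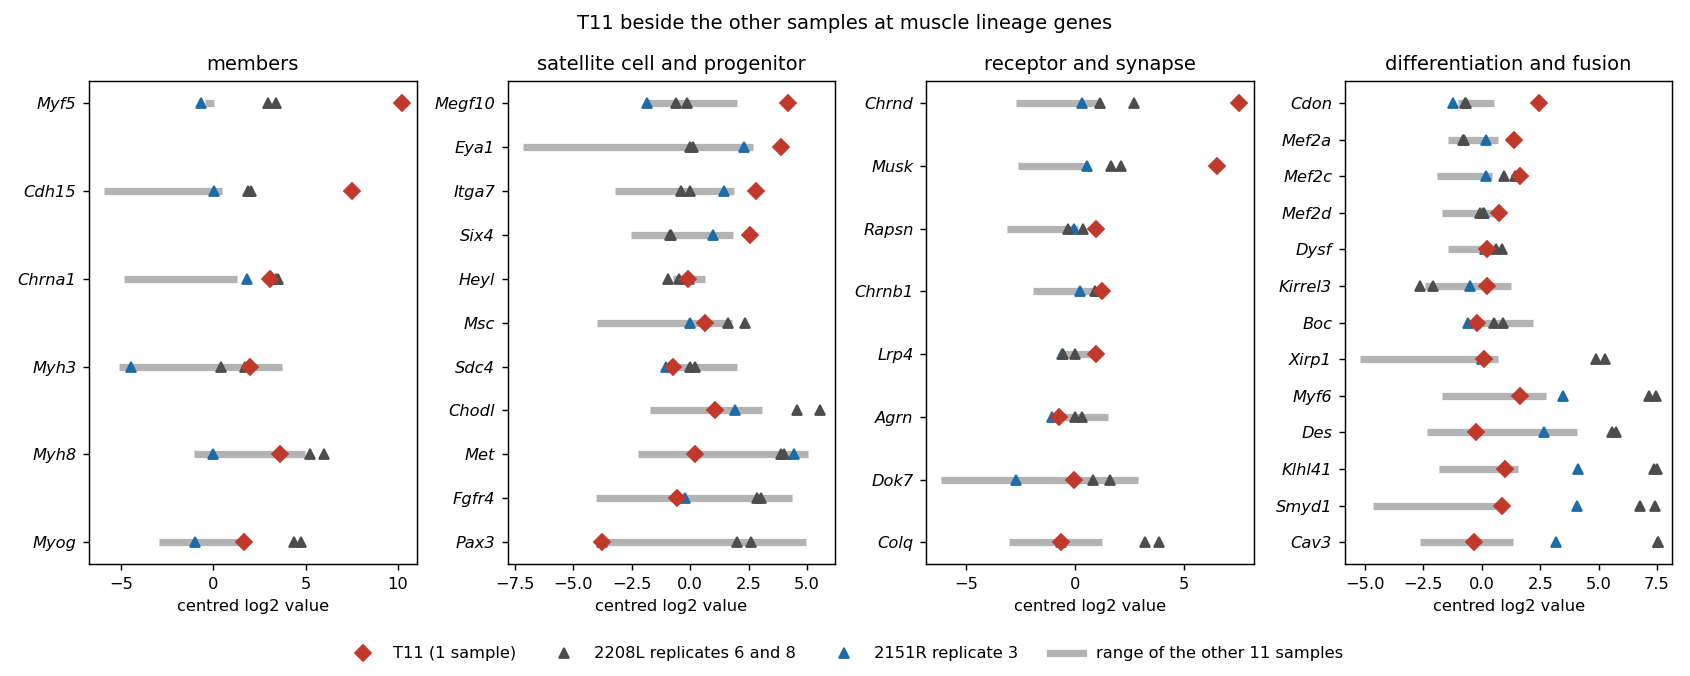
Centred log2 value (horizontal axes) of the members and of the other muscle lineage genes in 3 lists (rows); diamonds are T11, triangles the 3 muscle-rich samples and grey bars the range of the other 11 samples. Myf5, Cdh15, Chrnd and Musk in T11 lie beyond every other sample by 4.41 to 6.80 units, whereas Myog and Myf6 in T11 lie below replicates 6 and 8 of 2208L.

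The muscle-rich libraries did not share one profile of developmental genes. In replicate 6 of 2208L all 6 members lay above the 6 samples of 2208L that are not muscle-rich, by a median of 6.58 over their medians, and in replicate 8 all 6 did, by 6.13. At 27.7% and 23.2% of all genes these samples lay above those 6. In replicate 3 of 2151R, 3 of the 6 members lay above the other 3 samples of 2151R (20.4% of all genes did), by a median over the members of 0.31 and at most 1.36. The 16 adult genes exceeded the same samples by medians of 10.05, 9.32 and 7.75. Fibre myosins differed as well. Myh7, the slow myosin, was at 11.50 and 10.74 in replicates 6 and 8 of 2208L and at -0.97 in replicate 3 of 2151R. Myh4, a fast adult myosin, was at 12.70, 12.02 and 10.89. Of the other fast adult myosins listed, Myh1 was at 8.25, 7.46 and 1.53, and Myh2 at 11.61, 11.27 and 0.38, in the same order.

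Differences between the models were then tested, first 2151R against 2208L. None of the 6 members was called by limma at a Benjamini-Hochberg adjusted p-value under 0.05 over all genes, where 48.8% of 17271 genes were called. At an unadjusted p under 0.05 the count was also 0, and the exact permutation test called 0 of them and 50.6% of all genes. For Cdh15 the mean was -0.10 ± 0.58 (SD, n = 4) in 2151R. In 2208L it was -2.57 ± 3.20 (SD, n = 8), and the models differed by 2.48 with limma (SE 1.45, adjusted p 0.174). For Chrna1 the means were 1.29 ± 0.46 (SD, n = 4) in 2151R against -1.58 ± 3.38 (SD, n = 8), and limma gave 2.87 (SE 1.54, adjusted p 0.141). The other 4 members differed in the opposite direction, by -2.25 (Myh3), -2.01 (Myog), -1.92 (Myh8) and -1.07 (Myf5). The median difference of the members was -1.49, beside 0.10 over all genes.

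The spread of 2208L includes its muscle-rich pair. Without the 3 muscle-rich libraries, Cdh15 was higher in 2151R by 3.94 (SE 0.93, limma adjusted p 0.0063) and Chrna1 by 4.36 (SE 0.84, limma adjusted p 0.00200). At both genes all 3 remaining samples of 2151R lay above all 6 of 2208L. With all samples the models overlapped at both genes, while they did not at 38.8% of all genes. Without the 3 libraries this share was not counted, so the separation is a description only. Replicates 6 and 8 of 2208L were picked for high muscle genes. They were its highest at Cdh15 (2.06 and 1.88) and Chrna1 (3.53 and 3.38). Leaving them out lowers the 2208L mean at both genes, so these p-values follow an exclusion by outcome. In the fit without the 3 libraries 42.7% of all genes were called, so 2 of 6 members is not above the background. Myog, Myh3, Myh8 and Myf5 then differed by -0.83, -1.15, -0.67 and -0.15 and were not called. Leaving out replicate 6 or 8 of 2208L alone was enough for Chrna1 to be called (3.60, with 48.7% of all genes called, and 3.58, with 46.9%). With sample weights estimated by limma, Cdh15 and Chrna1 were called higher and Myh3 lower, among 65.8% of all genes. The library numbers in the titles of 2151R fall outside those of 2208L, so model and library series cannot be told apart.

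**Figure D4:**
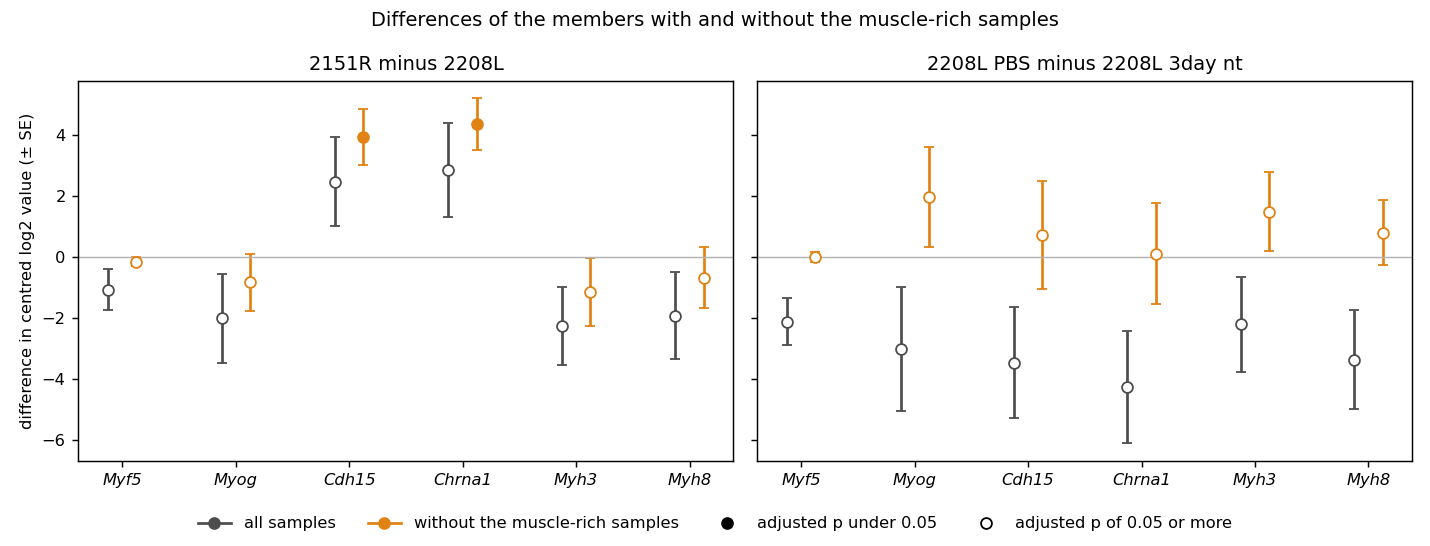
Difference in centred log2 value (vertical axis, with SE) of the 6 members for 2151R minus 2208L (left) and 2208L PBS minus 2208L 3day nt (right), in all samples and without the muscle-rich samples; filled symbols passed the adjusted p threshold of 0.05. In the left panel Cdh15 and Chrna1 pass without the muscle-rich samples and not with them (3.94 and 4.36), and without them the right panel compares 4 PBS samples with 1 sample.

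Around the members, the satellite cell and progenitor list divided between these models. Of its 11 genes, 3 were higher in 2151R by limma (26.1% of all genes were) and 4 lower (22.7%), and the groups did not overlap at any of these 7 (they did not at 38.8% of all genes). Eya1 was higher by 6.86 (SE 1.31), Itga7, a laminin receptor of muscle cells, by 3.68 (SE 0.56) and Six4 by 2.85 (SE 0.30). Pax3 lay at the shared -3.77 in all 4 samples of 2151R and between 1.62 and 2.61 in 2208L. Fgfr4, a growth factor receptor of myoblasts, was lower by a difference of -5.56 (SE 0.59). The median over the list was -0.69. Without the muscle-rich samples 3 genes of the list were higher and 4 lower, in a fit that called 42.7% of all genes either way.

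In the other lists the counts stand beside the same 26.1% of all genes called higher and 22.7% called lower. Of the 13 differentiation and fusion genes 3 were higher in 2151R (Mef2a, Mef2d and Kirrel3) and 1 lower (Boc), with a list median of -0.86. Of the 8 synapse genes Rapsn, the anchor of the receptor, was higher by 1.68 (SE 0.58, limma adjusted p 0.0289), while Agrn and Lrp4 were lower, and the list median was -0.64. Chrnd and Musk, which stood out in T11, were not called. Of the 8 embryonic and cardiac type sarcomere genes 3 were lower (Tnnt2, Tnni1 and Myl4), and of the 16 adult genes 1 was lower, Mb, which encodes myoglobin, with list medians of -1.99 and -2.77.

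In 2225L against 2208L, 0 of 6 members were called by limma (32.9% of all genes were), and 0 had an unadjusted p under 0.05. This comparison shares the 8 samples of 2208L with the one above. Myh3 had the largest difference, 3.16 (SE 1.65, limma adjusted p 0.163). It rests on values of 3.70 and -1.998 in the samples of 2225L. Replicates 6 and 8 of 2208L, picked by outcome, were the highest of 2208L at Myh3, at 1.72 and 0.41. With the muscle-rich samples left out, Myh3 was called (4.28, limma adjusted p 0.0272), where 33.5% of all genes were. It was also called without replicate 2 of 2225L (6.01, a fit with 1 sample of the model, 26.5% of all genes called) and with library prefix as a covariate (4.43, 31.7%).

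Between 2225L and 2151R, Myh3 was called, as the only member (48.6% of all genes were). Its mean was 0.85 ± 4.03 (SD, n = 2) in 2225L against -4.55 ± 0.39 (SD, n = 4), and limma gave 5.41 (SE 1.81, adjusted p 0.0249), with both samples of 2225L above all of 2151R. Of the 4 samples of 2151R, 2 lie at the shared value, and without replicate 1 of 2225L the difference was 2.56 (limma adjusted p 0.328, 47.5% of all genes called). With quantile normalization the call was also lost (4.57, limma adjusted p 0.0608, 41.0% called), as with sample weights (5.61, limma adjusted p 0.0668, 30.4% called). Without genes that hold a repeated value Myh3 is not tested, Cdh15 and Chrna1 were not called, and 48.7% of genes were. The difference was -3.78 for Cdh15 and -3.51 for Chrna1, with no overlap between the groups and no call (limma adjusted p 0.143 and 0.201), beside 62.4% of all genes without overlap. In the fit without the muscle-rich samples both were called (-3.73 and -3.32, 47.5% of all genes), and likewise in a fit of these 6 samples alone (46.0%).

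Within 2208L, PBS samples were compared with samples titled 3day nt. None of the 6 members was called by limma (34.0% of all genes were), and 1, Myf5, had an unadjusted p under 0.05 (0.0302). The mean of the PBS samples was the smaller for all 6, with differences of -4.26 for Chrna1, -3.46 for Cdh15, -3.36 for Myh8, -3.02 for Myog, -2.21 for Myh3 and -2.12 for Myf5. Of the 3 samples titled 3day nt, the muscle-rich replicates 6 and 8 were high and replicate 7 was low, with Myf5 at 0.00, Myog at -2.92, Cdh15 at -4.29, Chrna1 at -3.11, Myh3 at -4.49 and Myh8 at -0.61. Without replicate 7 all 6 members were called lower in PBS (34.5% of all genes were called), and the muscle-rich pair is then the whole group. Sample weights also called all 6 lower (67.7%). Without that pair all 6 differences changed sign, to between 0.01 and 1.98, and 0.567% of all genes were called. Replicate 7 is then the only 3day nt sample, at the shared value at Myf5, Myh3 and Myh8 and below it at Myog. Subset and library series cannot be told apart here either.

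The genes whose values over the 15 samples most resembled each member were named by Pearson correlation, leaving out predicted genes. For Myf5 they were Zic1 (0.99), Tbx4 (0.95) and Inka2 (0.93). Over 14 samples without T11, whose value chose Myf5, Tbx4 was at 0.77 and Inka2 at 0.72, and the nearest genes were Zic1 (0.98), Myl3 (0.97) and Hoxa11os (0.96). Zic1, a zinc finger transcription factor, was at 10.05 in T11, 4.39 and 4.23 in replicates 6 and 8 of 2208L and between -0.66 and 1.002 elsewhere. Both genes have many samples at a shared value, and these samples enter the coefficient. Without T11, Myf5 was clear of its shared value on the high side only in replicates 6 and 8 of 2208L. The coefficients over 14 samples thus rest on that pair, where Myl3 was at 9.72 and 8.97. Tbx4, a transcription factor of the hindlimb, was at 8.12 in T11 and 3.05 and 1.89 in the pair of 2208L.

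For Cdh15 the 3 nearest genes were Musk (0.95), Fign (0.93) and Iqsec3 (0.92), which are also high in T11 (6.52, 5.59 and 4.91). Without T11 they were Klhl40, Ttn and Clic5 (0.97, 0.96 and 0.94). For Chrna1 they were Klhl40 (0.94), Dnajb5 (0.93) and Eno3 (0.93). Klhl40, which encodes a protein of the muscle sarcomere, was between 2.28 and 2.76 in 2151R, at 1.38 in T11, at 4.37 and 4.27 in the pair of 2208L and from -5.34 to -0.92 in all others. Klhl40 was named for its likeness to Cdh15 and Chrna1, so its raised level in 2151R restates that choice. It lacks the T11 peak of Cdh15.

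For Myog the nearest were Myoz2, Xirp1 and Hspb7 (0.95 each), and for Myh8 they were Myoz2 (0.92), Myh2 (0.89) and Csrp3 (0.88). Myoz2, near both, encodes a protein of the sarcomere. For Myh3 they were Dpysl4 (0.88), Lypd6 (0.85) and Hoxd3os1 (0.84). These coefficients are over samples that share models and libraries, and they describe likeness only.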

How the data were processed

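RNA-seq was made from poly(A) libraries of total RNA from 15 tumours, per the labels' protocols. Expression of 17271 genes was deposited in 1 table of log2 values, which its name describes as centred per gene on a median. STAR and Salmon with build mm10 are named, per the submitters' processing notes, without their roles; versions, annotation, offset and scaling between samples are not given in the sources used here. Depth is unknown, and precision rests on the spread between samples.

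The model named in each title set the groups, and replicates were numbered by accession. Differences were fitted with limma 3.58.1 in R 4.3.3 (lmFit, eBayes without trend) on the values as deposited, in 1 fit of 15 samples with a mean per model, or of 7 samples for the PBS comparison, and called at a Benjamini-Hochberg adjusted p-value under 0.05 over all 17271 genes. The script was tested on simulated data. Named are the members, listed genes with the largest differences, and the 3 genes most correlated with each member. Other genes named were chosen after their values were seen. The members and lists were chosen with earlier results of these data known, and 1 listed gene is not reported here. Alternatives covered scaling, eBayes settings, sample weights, filters, a fold minimum, single samples, the muscle-rich samples, sample choice, library prefix and an exact permutation test. Python 3.11.15 drew the figures.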

Additional observations from a re-analysis of the deposited data

Results flagged for a closer look

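The values of the 6 members and of 5 muscle lists were searched for 1 sample standing apart. This was done in 33 combinations of a member or list with a group of 4 to 8 samples. Such a sample was found in 4, where 1 in 20 of the combinations would be 1.65. The combinations share samples, the Myf5 and Myog cases rest on shared values, and the adult muscle case was known beforehand. The count of 4 beside 1.65 is therefore not a test of chance. Myf5 was 0.024 in replicate 2 of 2208L among PBS samples, where the other 3 share the value 0.00, so the gap is that from a repeated number. Myog was -0.97 in replicate 3 of 2151R, where the other 3 share -2.33. The adult muscle list had a median deviation of 5.63 in the same sample, with the others from -3.01 to -2.63. The satellite cell and progenitor list had one of -0.36 in replicate 2 of 2151R, with the others from -0.02 to 0.00.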

How the results depend on the processing

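No paired analysis was possible because no label gives samples of different groups a common number, animal or batch. Sample weights called 3 members for 2151R against 2208L (Cdh15 and Chrna1 higher, Myh3 lower), 0 for 2225L against 2151R and 6 for PBS against 3day nt. Without the muscle-rich samples 2, 1, 3 and 0 members were called in the 4 comparisons, in the order of the report. Leaving out single samples gave 0 to 1 called members in each of the 3 comparisons between models and 0 to 6 for PBS against 3day nt. For 2225L against 2208L, library prefix as a covariate called 1. For 2225L against 2151R, quantile normalization called 0, leaving out genes with a repeated value called 0 (only Cdh15 and Chrna1 then remain), and a fit of the compared samples alone called 3. The muscle-rich samples were known from earlier results and were picked by a measured outcome, so the counts without them follow that choice. Where a fit left a group with 1 sample, that sample is assumed to vary like the others.

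Some differences that were not called changed sign. For 2225L against 2208L, Chrna1 became 0.22 with quantile normalization, 0.054 with sample weights, 0.42 with library prefix and 1.04 without the muscle-rich samples, Cdh15 became 0.21 in the last of these, and Myog 0.55 there and 0.051 with prefix. In fits without 1 sample, Chrna1 ranged from -1.64 to 0.36, Myog from -2.35 to 0.42 and Myh8 from -1.96 to 3.65, and for 2225L against 2151R Myh8 ranged from -0.039 to 5.57 and Myog from -0.34 to 2.42. For PBS against 3day nt without the muscle-rich pair, the differences were 0.71 (Cdh15), 0.11 (Chrna1), 0.0061 (Myf5), 1.49 (Myh3), 0.80 (Myh8) and 1.98 (Myog). They rest on replicate 7 as the only 3day nt sample, which at Myog lay below the shared value. The cause of these changes was not tested.

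For T11, scaling alternatives were chosen after the data were seen. Centring each sample or quantile normalization kept 2 members at least 1 unit above all others, and without genes with a repeated value 1 remained, Cdh15, since Myf5 is then left out. With quantile normalization the margin of Myf5 was 8.35. The unknown depth limits how low values can be read.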
